A study of Mus musculus with 12 samples.

Results

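The 9 listed genes of the Polycomb repressive complexes were followed through the differentiation of mouse embryonic stem cells: Ezh1, Ezh2, Eed, Suz12, Jarid2, Mtf2, Cbx2, Cbx7 and Rnf2. The 9 genes were chosen by name and not by their signal, and their probes were all non-control probes that the scanner files name for them, 19 of 41174 probes. All 9 passed the filter on dim probes and stood among the 17524 genes tested. Cells of mouse strain 129 were compared in 6 groups of 2 arrays. They were undifferentiated cells, titled LIF (the usual abbreviation of leukaemia inhibitory factor, a cytokine that keeps mouse stem cells undifferentiated), embryoid bodies (EB, floating aggregates) after 1, 3 or 4 days of differentiation, and cells differentiated as a monolayer (ML) for 1 or 3 days. The labels call the 2 samples of each group clones 1 and 2, and the design text states 2 independent experiments per time, run by different people, so a p-value measures the spread between such samples only. The labels name no allele or agent other than LIF, and the medium of the EB and ML cultures is not given in the sources used here.

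Polycomb repressive complex 2 (PRC2) places methyl groups on lysine residues of histone H3 through its catalytic subunit Ezh2 or Ezh1, held together with Eed and Suz12. Jarid2 and Mtf2 are accessory subunits that help bring PRC2 to CpG-rich promoters. Polycomb repressive complex 1 (PRC1) ubiquitinates histone H2A through Rnf2 (also called Ring1B) or Ring1, and its Cbx subunit reads the PRC2 mark. In mouse stem cells Cbx7 is known as the main Cbx subunit of PRC1, and Cbx2 and Cbx8 as subunits of differentiating cells, which is the exchange examined here.

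The readings of Cbx2 and Cbx7 rest on 60-base probes, of which the first 30 bases are shown so that a reader can see where the signal came from, since the Cbx2 probes gave changes of different size and, at ML day 3, of opposite sign. The probe that stands for Cbx2 lies at chr11:118892363-118892422 (mm9, plus strand), its second probe at chr11:118890328-118890387 on the same strand, and the only Cbx7 probe at chr15:79746268-79746327 (mm9, minus strand).
Cbx2 A_52_P13730: ccttttattttactggttacgtcagtccca
Cbx2 A_51_P300245: gaacctatctgtagctatccagaccagcca
Cbx7 A_52_P263774: ggtaaaagactgtatagcatctatttattt
By gene order in the RefSeq table, Cbx2 and Cbx8 are neighbouring protein-coding genes on chromosome 11, and Cbx6 and Cbx7 flank Apobec3 on chromosome 15.

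Promoters from RefSeq (GRCm38.p6) were matched for 8 of the 9 genes, all but Cbx2, over a window of 300 bases that ends 50 bases inside the gene. The pattern TTTNGCGC, a form of the core of the site bound by E2F cell cycle factors, was searched on either strand. It occurred in 1 of the 8, Ezh2, and in 1.38% of all 32851 windows. Other forms of that core were not searched, so the other windows are not shown to lack one. The 30 bases around the match in Ezh2 lie at chr6:47595009-47595038 (GRCm38.p6, minus strand). They are shown with the match in capitals, and a match is a description of the letters only.
Ezh2: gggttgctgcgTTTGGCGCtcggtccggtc
The 250 bases before the start of Cbx7 at chr15:79932647-79932896 (minus strand) and of Mtf2 at chr5:108065424-108065673 (plus strand), both GRCm38.p6, are shown for a PRC1 and a PRC2 gene whose fall at EB day 4 was called in all 20 other settings tried. Capitals mark CpG dinucleotides, of which each of these windows holds 23, against a median of 6 and a 90th percentile of 25 over all windows. The falls of Eed and Suz12 at EB day 4 were also called in all 20 other settings, and their windows hold 12 and 37. A second Mtf2 start in the table, with its window at chr5:108077915-108078164, holds 2.
Cbx7: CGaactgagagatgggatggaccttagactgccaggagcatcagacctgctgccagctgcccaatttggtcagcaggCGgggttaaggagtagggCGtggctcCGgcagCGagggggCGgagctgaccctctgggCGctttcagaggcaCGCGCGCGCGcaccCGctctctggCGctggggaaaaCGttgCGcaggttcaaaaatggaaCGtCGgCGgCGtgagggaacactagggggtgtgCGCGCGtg
Mtf2: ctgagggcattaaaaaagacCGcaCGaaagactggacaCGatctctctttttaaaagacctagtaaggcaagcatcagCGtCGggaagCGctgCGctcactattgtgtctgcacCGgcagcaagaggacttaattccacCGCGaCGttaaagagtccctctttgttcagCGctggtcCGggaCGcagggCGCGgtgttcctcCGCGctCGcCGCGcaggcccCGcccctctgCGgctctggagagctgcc

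Each reading below is log2 of a probe's processed signal relative to the 75th percentile of its array, and a change is the difference between group means on that scale with the standard error (SE) of the limma fit. A gene is called where its Benjamini-Hochberg adjusted p from limma, taken over all 17524 genes of a comparison, is under 0.05. Readings of different probes are not comparable in level, so each change is of a probe with itself unless the mean of probes is named. Summed signals and the difference between Cbx2 and Cbx7 combine probes, so only their shifts between arrays are read.

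Against LIF, the 9 genes moved in both directions and more of them fell than rose. Among the 49 measured genes of the wider lists described below, more were called higher than lower in each of these comparisons. At EB day 1, 1 of 9 was called, lower, where 13.5% of all genes tested were called, 8.08% higher and 5.46% lower. At ML day 1, 2 of 9 were called, both lower, beside 18.1% of all genes, 11.7% higher and 6.43% lower. At EB day 3, 4 of 9 were called, 1 higher and 3 lower, beside 23.7% of all genes, 13% higher and 10.8% lower. At ML day 3, 4 of 9 were called, all lower, beside 23.5% of all genes, 12.6% higher and 10.8% lower. At EB day 4, 6 of 9 were called, 2 higher and 4 lower, beside 40.9% of all genes, 18.7% higher and 22.2% lower. The median change of the 9 genes was -0.15 at EB day 1, -0.27 at ML day 1, -0.64 at EB day 3, -0.93 at ML day 3 and -0.78 at EB day 4, whereas the median of all genes lay between -0.05 and 0.14 in these comparisons. In these bulk samples fewer cells of a type and less RNA per cell cannot be told apart. Of 8 measured fibroblast markers, 5 fell at EB day 1, 3 at ML day 1, 7 at EB day 3, 6 at ML day 3 and 6 at EB day 4. The log2 of their summed signal, in which the brightest probes weigh most, was 7.64 and 6.10 with LIF. It was 4.35 to 6.08 on the other arrays. All 8 markers were well above background on every array except those of EB day 4. There Dcn was not well above background on either array, and Col3a1 was so on only 1. The part of the fibroblast markers in the Polycomb changes was not tested.

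**Figure D1:**
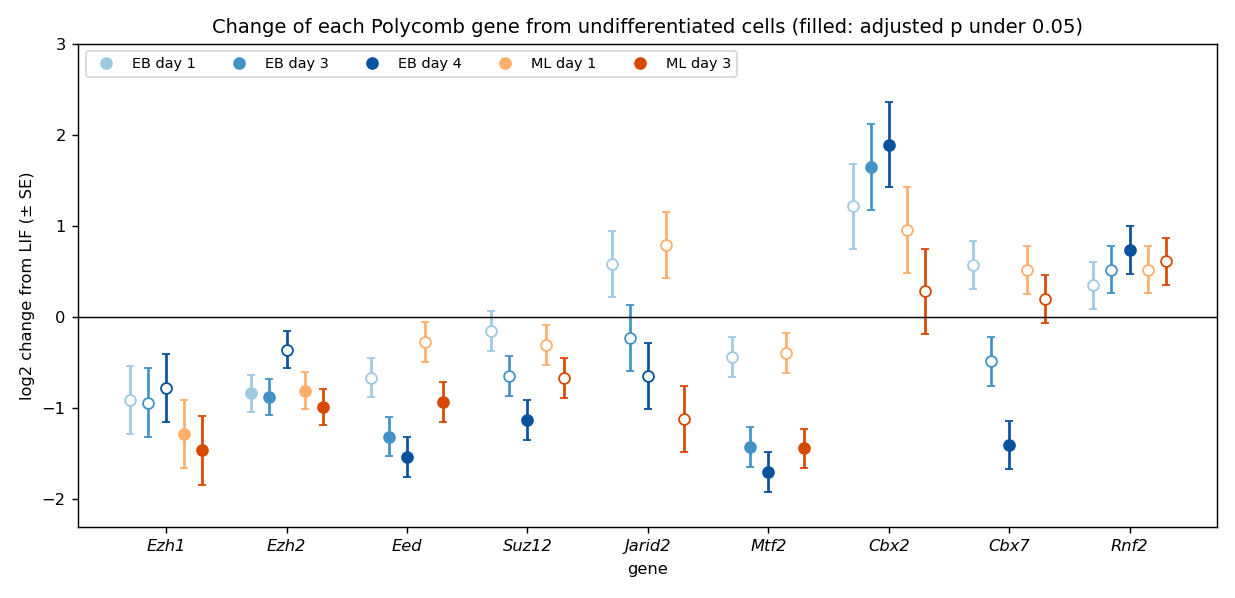
Log2 change from LIF of each of the 9 genes (y axis, with the SE as bars), by gene (x axis) and coloured by culture and day, filled where the adjusted p was under 0.05. Eed, Suz12 and Mtf2 lie below 0 in every group, Cbx2 and Rnf2 above 0, and Cbx7 is above 0 at day 1 and at -1.41 at EB day 4.

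Ezh2, the main catalytic subunit of PRC2 in dividing cells, fell on leaving the undifferentiated state and was not called at EB day 4. It read 3.19 and 3.46 on the LIF arrays, 2.35 and 2.62 at EB day 1, 2.39 and 2.50 at EB day 3, and 2.98 and 2.95 at EB day 4. The monolayer arrays read 2.40 and 2.64 at day 1, and 2.25 and 2.42 at day 3. Both LIF arrays were above all 10 others, and the EB day 4 arrays were above the other 8. The log2 change from LIF was -0.83 (SE 0.20, adjusted p = 0.0288, limma) at EB day 1, -0.80 (adjusted p = 0.0277) at ML day 1, -0.87 (adjusted p = 0.0147) at EB day 3 and -0.99 (adjusted p = 0.00922) at ML day 3. At EB day 4 it was -0.35 with an adjusted p of 0.187, and the difference of EB day 4 over day 3, 0.52, had an adjusted p of 0.120. Without the second LIF array the calls at EB day 1, ML day 1 and EB day 3 were lost, with adjusted p of 0.130, 0.137 and 0.0703, and each was lost without either array of the differentiated group, with adjusted p from 0.0591 to 0.175. The EB day 1 call was also lost without either EB day 4 array (adjusted p = 0.0509).

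Ezh1, the alternative catalytic subunit, known from non-dividing cells, was lower than LIF on nearly every array, but its LIF arrays stood far apart. They read -1.46 and -0.14, and the other groups read -1.70 and -1.72 at EB day 1, -1.82 and -1.65 at EB day 3, and -1.78 and -1.38 at EB day 4. On the monolayer arrays it read -2.03 and -2.13 at day 1, and -2.46 and -2.06 at day 3. Of the 10 differentiated arrays only the second EB day 4 array was above the lower LIF array. The change was called in monolayer, -1.28 (SE 0.38, adjusted p = 0.0458, limma) at day 1 and -1.46 (adjusted p = 0.0229) at day 3. Without the second LIF array it was -0.62 (adjusted p = 0.214) at ML day 1 and -0.80 (adjusted p = 0.0879) at ML day 3. Without the first LIF array the changes at EB days 1, 3 and 4 were called as well, at -1.57, -1.60 and -1.44, so the size for Ezh1 depended on which LIF array was kept. The ML day 3 call was also lost without the first ML day 3 array (adjusted p = 0.106), and the ML day 1 call in 13 of 20 other settings. Those were 9 single arrays left out, with adjusted p up to 0.214, quantile normalization (adjusted p = 0.0730), the authors' values (adjusted p = 0.0733), no filter (adjusted p = 0.0690) and the compared groups alone (adjusted p = 0.138).

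Eed, the PRC2 subunit that reads the mark the complex makes, fell by day 3 in both cultures. It read 3.46 and 2.93 with LIF, 2.62 and 2.44 at EB day 1, 1.91 and 1.86 at EB day 3, and 1.68 and 1.64 at EB day 4. In monolayer it read 2.84 and 3.01 at day 1, and 2.17 and 2.37 at day 3. No array of EB day 3, EB day 4 or ML day 3 reached an array of an earlier day. The change from LIF was -1.31 (SE 0.22, adjusted p = 0.00383, limma) at EB day 3, -0.93 (adjusted p = 0.0160) at ML day 3 and -1.53 (adjusted p = 0.000787) at EB day 4, a fold of 2.90. The ML day 3 call was lost without the first LIF array (-0.67, adjusted p = 0.0659) or the first ML day 3 array (-0.83, adjusted p = 0.0618). With the compared groups alone the calls at EB day 3 and ML day 3 were lost (adjusted p = 0.0535 and 0.195, limma). At EB day 1 the change from LIF was -0.66 (adjusted p = 0.0742). It was called with quantile normalization (-0.87, adjusted p = 0.0273) and the authors' values (-0.88, adjusted p = 0.0273). Between day 1 and day 3 the change was -0.65 in EB and -0.66 in ML, with adjusted p of 0.131 and 0.0813. A second probe is named Eed in the newer version of the array design only. It lies on the plus strand, whereas the Eed probe lies on the minus strand. This second probe was called lower than LIF at EB day 3 (-1.15, adjusted p = 0.0273, limma) and ML day 3 (-1.10, adjusted p = 0.0312). At EB day 4 its change was -0.50 (adjusted p = 0.227).

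Suz12, the PRC2 scaffold, was lowest at EB day 4, where it was called. It read 2.78 and 2.92 with LIF, 2.72 and 2.68 at EB day 1, 2.50 and 1.92 at EB day 3, and 1.75 and 1.69 at EB day 4. The monolayer arrays read 2.64 and 2.46 at day 1, and 2.16 and 2.21 at day 3. The EB day 4 arrays were the lowest of the 12. The change from LIF was -1.13 (SE 0.22, adjusted p = 0.00362, limma) at EB day 4, a fold of 2.19. At EB day 3 it was -0.64 (adjusted p = 0.0628) and at ML day 3 -0.67 (adjusted p = 0.0553). The EB day 3 change was called in 5 of 20 other settings: without the first EB day 3 array (-0.93, adjusted p = 0.0327), and with quantile normalization, normexp, the authors' values and the mean of probes, with adjusted p from 0.0170 to 0.0343. The ML day 3 change was called in 7, those same 4 processing settings, the filter over all arrays (adjusted p = 0.0438) and without either EB day 3 array (adjusted p = 0.0381), with a lowest adjusted p of 0.0136. The second Suz12 probe fell further, by 1.83 (adjusted p = 0.000312) at EB day 4, by 1.15 (adjusted p = 0.00620) at EB day 3 and by 1.22 (adjusted p = 0.00496) at ML day 3.

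Mtf2, a Polycomb-like accessory subunit that binds unmethylated CpG-rich DNA, had the lowest adjusted p of the 9 genes at EB day 4. It read 4.06 and 3.79 with LIF, 3.35 and 3.63 at EB day 1, 2.47 and 2.53 at EB day 3, and 2.38 and 2.07 at EB day 4. On the monolayer arrays it read 3.45 and 3.61 at day 1, and 2.33 and 2.64 at day 3. All 6 arrays of days 3 and 4 were below all 6 of LIF and day 1. The change from LIF was -1.42 (SE 0.22, adjusted p = 0.00262, limma) at EB day 3, -1.44 (adjusted p = 0.00274) at ML day 3 and -1.70 (adjusted p = 0.000465) at EB day 4, a fold of 3.25. At EB day 1 and ML day 1 it was -0.43 and -0.40, with adjusted p of 0.201 and 0.227. The ML day 1 change was called, at -0.78, with quantile normalization (adjusted p = 0.0387, limma) and with the authors' values (adjusted p = 0.0384). The other 2 tested Mtf2 probes fell by 1.78 and 2.20 at EB day 4.

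The fall of Mtf2 between days 1 and 3 could be read within a slide, as EB days 1 and 3 shared a slide and ML days 1 and 3 another. Between EB days 1 and 3, 1 of the 9 genes was called, Mtf2, lower, where 5.5% of all genes were called, 3.14% higher and 2.36% lower. Between ML days 1 and 3, 2 of 9 were called, Mtf2 and Jarid2, both lower, where 12.5% were called, 5.8% higher and 6.72% lower. Mtf2 changed by -0.99 (SE 0.22, adjusted p = 0.0337, limma) in EB and -1.05 (adjusted p = 0.0170) in ML. The EB call was lost in 12 of 21 other settings. It was lost in 8 of the 12 fits that left out an array, with adjusted p from 0.0507 to 0.238: those without an EB day 1, EB day 3, EB day 4 or ML day 1 array. The ML call was lost without either ML day 1 array or the first ML day 3 array, with adjusted p of 0.0627, 0.134 and 0.0782. The EB change kept its sign in those 12 fits, between -1.13 and -0.85. The EB call was also lost with normexp (-0.80, adjusted p = 0.0688), with no filter (adjusted p = 0.0618), with the compared groups alone (adjusted p = 0.0611) and with the arrays of the middle scan day alone (adjusted p = 0.0526).

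Jarid2 is the accessory subunit that tethers PRC2 to its targets and is itself abundant in stem cells. By the probe that stands for the gene, Jarid2 had its highest group means at day 1 and its lowest at ML day 3. It read 4.32 and 3.14 with LIF, 4.18 and 4.45 at EB day 1, 3.78 and 3.22 at EB day 3, and 3.02 and 3.15 at EB day 4. In monolayer it read 4.44 and 4.61 at day 1, and 2.45 and 2.77 at day 3. The LIF arrays were far apart, and the ML day 3 arrays were the lowest of the 12. From ML day 1 to day 3 it changed by -1.92 (SE 0.36, adjusted p = 0.0116, limma), a fold of 3.78. That call was lost without the second ML day 1 array (-1.83, adjusted p = 0.0921) or the first ML day 3 array (-1.75, adjusted p = 0.0688). In EB the change over the same days was -0.82 (adjusted p = 0.246), and the EB change minus the ML change had a 95% interval from -0.06 to 2.25 and an adjusted p of 0.520. Against LIF no Jarid2 change was called, from -1.12 (adjusted p = 0.0526) at ML day 3 to 0.80 (adjusted p = 0.150) at ML day 1. Without the first LIF array the changes at EB day 1 and ML day 1 were called, at 1.17 (adjusted p = 0.0380) and 1.38 (adjusted p = 0.0191). Without the second LIF array those at ML day 3 and EB day 4 were called, at -1.70 (adjusted p = 0.0112) and -1.23 (adjusted p = 0.0174). The second tested Jarid2 probe was called lower than LIF, at -1.92 (adjusted p = 0.0143) for ML day 3 and -1.45 (adjusted p = 0.0266) for EB day 4. That probe showed no such rise at day 1, with limma changes of -0.05 (adjusted p = 0.945) at EB day 1 and 0.15 (adjusted p = 0.834) at ML day 1.

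**Figure D2:**
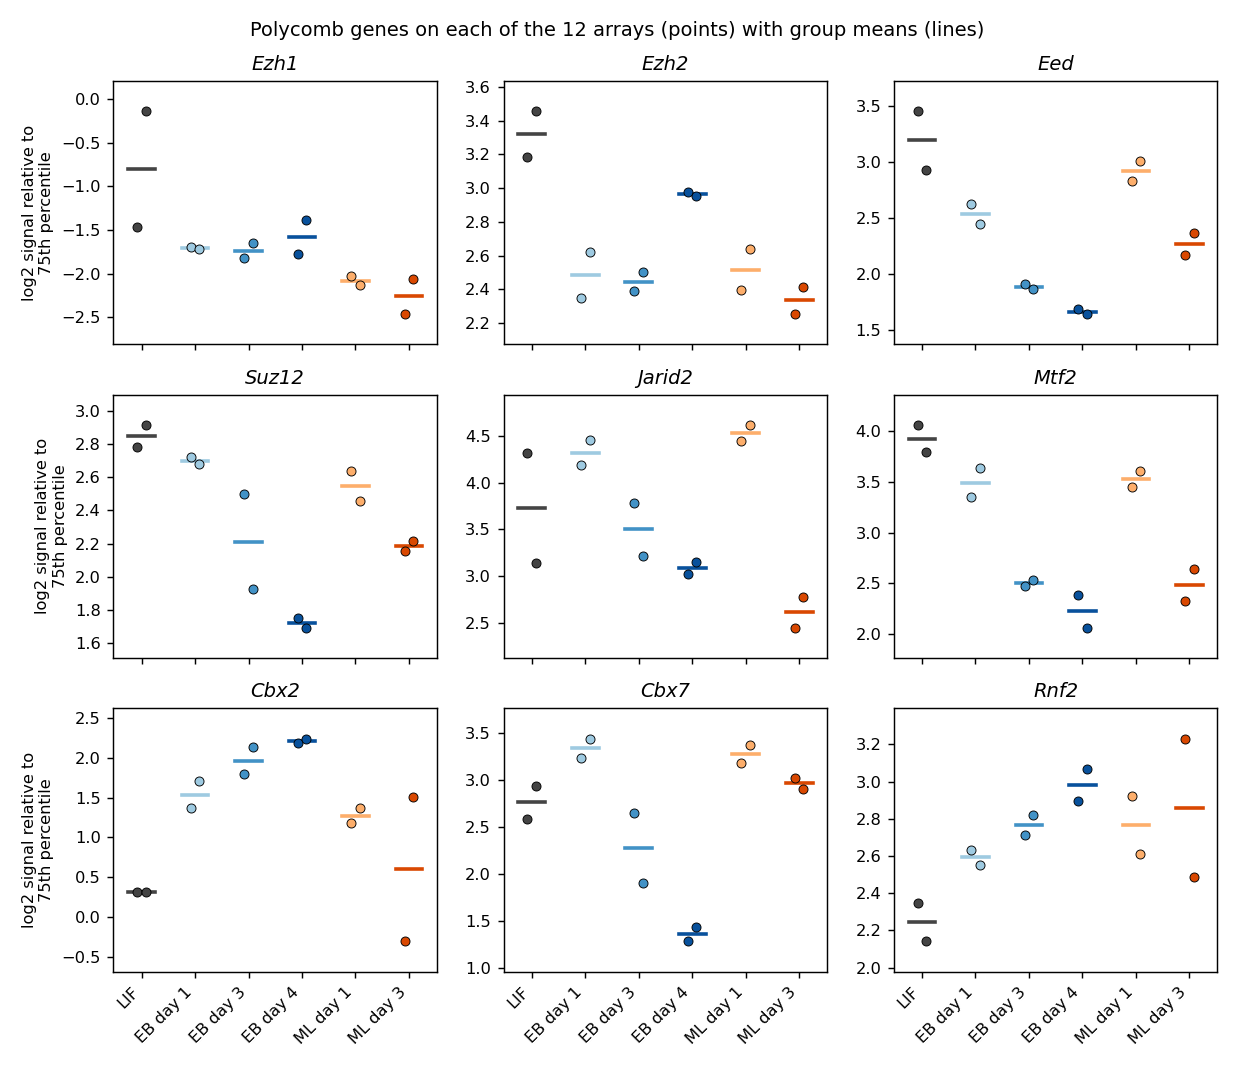
Log2 signal relative to the 75th percentile of the array (y axis, with a scale of its own in each panel) of the 9 genes in the 6 groups (x axis); points are arrays and lines group means. The 6 arrays of days 3 and 4 are below the others for Mtf2, the EB day 4 arrays are the lowest for Cbx7 and Suz12, and the ML day 3 arrays for Cbx2 lie at -0.30 and 1.50.

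Cbx7, the chromodomain subunit of PRC1 in undifferentiated stem cells, read highest at day 1, without passing the test against LIF, and was lower than LIF at EB day 4. It read 2.59 and 2.94 with LIF, 3.24 and 3.44 at EB day 1, 2.65 and 1.91 at EB day 3, and 1.28 and 1.43 at EB day 4. The monolayer arrays read 3.19 and 3.38 at day 1, and 3.03 and 2.91 at day 3. The 4 day 1 arrays were the highest of the 12 and the EB day 4 arrays the lowest. The change from LIF was -1.41 (SE 0.26, adjusted p = 0.00313, limma) at EB day 4, a fold of 2.65. At EB day 3 it was -0.49 (adjusted p = 0.211) and at ML day 3 0.20 (adjusted p = 0.610). From EB day 1 to day 3 it was -1.06 (adjusted p = 0.0523) and from EB day 3 to day 4 -0.92 (adjusted p = 0.0515). The day 1 to 3 change passed the test without the first EB day 3 array (-1.43, adjusted p = 0.0192). The day 3 to 4 change passed it without the second EB day 3 array (-1.29, adjusted p = 0.0235) and without either ML day 3 array (adjusted p = 0.0484).

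Cbx2, a PRC1 subunit whose own positively charged region compacts chromatin, was called higher than LIF at EB days 3 and 4. It read 0.32 and 0.31 with LIF, 1.37 and 1.70 at EB day 1, 1.80 and 2.13 at EB day 3, and 2.18 and 2.24 at EB day 4. On the monolayer arrays it read 1.18 and 1.37 at day 1, and -0.30 and 1.50 at day 3. Of the 10 differentiated arrays only the first ML day 3 array was below LIF, and its second Cbx2 probe was lowest on that array too, at -5.06. The change from LIF was 1.65 (SE 0.47, adjusted p = 0.0329, limma) at EB day 3 and 1.89 (adjusted p = 0.0110) at EB day 4, folds of 3.14 and 3.72. At EB day 1 it was 1.22 (adjusted p = 0.110), at ML day 1 0.96 (adjusted p = 0.177) and at ML day 3 0.28 (adjusted p = 0.693).

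The calls on Cbx2 depended on single arrays. The EB day 3 call was lost without any single LIF, EB day 1, EB day 3 or ML day 1 array, with adjusted p from 0.0506 to 0.147, and the EB day 4 call without the second EB day 4 array (1.86, adjusted p = 0.0538). The fits without an ML day 3 array leave that group with 1 array, which is assumed to vary like the other groups, and leave the spread between the ML day 3 arrays out of the error. Without the first ML day 3 array the change at ML day 3 was called higher (1.19, adjusted p = 0.0174), and without either ML day 3 array so were the changes at ML day 1 (adjusted p = 0.0138) and EB day 1 (adjusted p = 0.00898). Without the second ML day 3 array, the fitted Cbx2 change from ML day 1 to day 3 was -1.58 (adjusted p = 0.00486), and without the first it was 0.23 (adjusted p = 0.627). Without the second, the fitted difference of EB day 3 over ML day 3 was 2.27 (adjusted p = 0.00400), and that of the change from day 1 was 2.00 (adjusted p = 0.0341). The second Cbx2 probe gave 0.79 (adjusted p = 0.243) at EB day 4 and 0.90 (adjusted p = 0.223) at EB day 3, and was well above background on 11 of 12 arrays. At ML day 3 it was at -0.40 (adjusted p = 0.597), opposite in sign to the first probe. With the mean of both probes the Cbx2 change was 1.34 (adjusted p = 0.0526) at EB day 4 and 1.28 (adjusted p = 0.0878) at EB day 3.

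The difference between the Cbx2 and Cbx7 readings on each array shows unequal change of the genes and not their relative abundance. It was -2.27 and -2.63 with LIF, -1.87 and -1.74 at EB day 1, -0.85 and 0.23 at EB day 3, and 0.90 and 0.81 at EB day 4. In monolayer the day 1 arrays were close together, with a mean of -2.01 ± 0.0036 (SD, n = 2), and the day 3 arrays were at -3.33 and -1.40. The mean shift from LIF was therefore 3.30 at EB day 4, 2.13 at EB day 3 and 0.64 at EB day 1, whereas it was 0.44 at ML day 1 and 0.08 at ML day 3. From day 1 to day 3 the EB mean went from -1.80 to -0.31 and the ML mean from -2.01 to -2.37. Over both cultures the mean was -1.34 ± 1.49 at day 3 and -1.90 ± 0.13 at day 1 (SD, n = 4 each), a difference of 0.57. The SD at day 3 therefore includes the gap between the cultures. A two-sided exact permutation test over 70 splits gave p = 0.486, and the smallest p it allows is 0.0286. This test pools the cultures, so it cannot decide on a shift within EB alone. Without the first ML day 3 array the difference was 1.23 with an exact p of 0.0286, and without the second EB day 3 array it was 0.043.

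**Figure D3:**
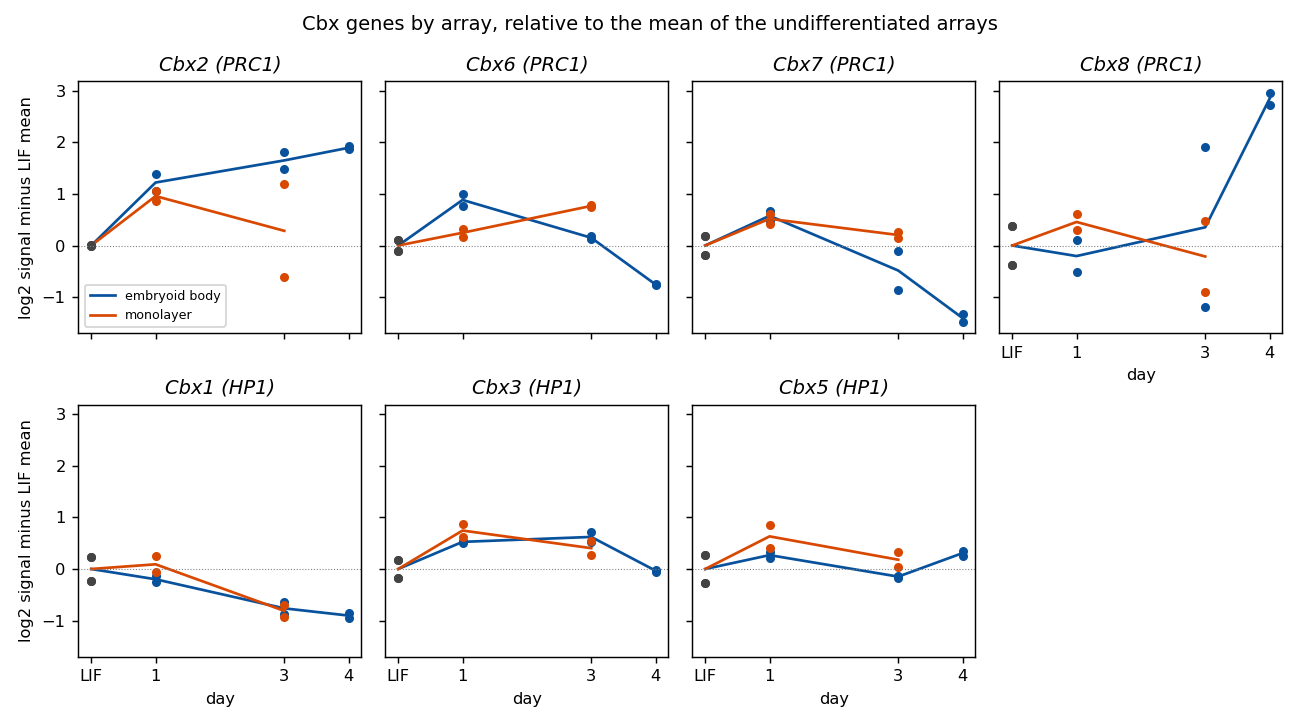
Log2 signal of 7 Cbx genes on each array minus the mean of the LIF arrays (y axis) by day (x axis), points being arrays and lines group means, for embryoid bodies and monolayers. In embryoid bodies Cbx2 and Cbx8 end above LIF, by 1.89 and 2.84 at day 4, and Cbx7 and Cbx6 below it, at -1.41 and -0.76.

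Among the other Cbx genes of PRC1 described here, Cbx8 was called higher and Cbx6 lower at EB day 4. The Cbx8 probe read -3.64 and -4.41 with LIF, -4.53 and -3.92 at EB day 1, -5.22 and -2.12 at EB day 3, and -1.06 and -1.30 at EB day 4. Cbx8 was higher at EB day 4 than with LIF by 2.84 (SE 0.84, adjusted p = 0.0245, limma). Its EB day 3 arrays differed by about as much, and its monolayer arrays read -3.72 and -3.41 at day 1 and -4.92 and -3.55 at day 3. The Cbx8 call was kept in 16 of 20 other settings, with changes from 1.57 to 3.23. Cbx6 read 2.60 and 2.37 with LIF and 1.72 and 1.74 at EB day 4, a change of -0.76 (SE 0.19, adjusted p = 0.0108), after a rise of 0.88 (adjusted p = 0.0193) at EB day 1. In monolayer Cbx6 rose by day 3, to 3.27 and 3.23, a change of 0.77 (adjusted p = 0.0180) from LIF.

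The HP1 proteins Cbx1, Cbx3 and Cbx5 carry the same kind of domain but bind another histone mark, that of heterochromatin, and served as the comparison within the family. Cbx1 fell by day 3 in both cultures, by 0.76 (SE 0.23, adjusted p = 0.0399, limma) at EB day 3, 0.81 (adjusted p = 0.0316) at ML day 3 and 0.90 (adjusted p = 0.0123) at EB day 4. Cbx3 was called only at ML day 1 among the 11 comparisons, at 0.74 (adjusted p = 0.0389), and Cbx5 in none. The Cbx1 calls at EB day 3, ML day 3 and EB day 4 were kept in 8, 12 and 17 of 20 other settings, and the Cbx3 call in 5.

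Rnf2, the ubiquitin ligase of PRC1, gave an unsettled reading, as its probes moved in opposite directions. The probe that stands for the gene read 2.34 and 2.14 with LIF, 2.63 and 2.55 at EB day 1, 2.71 and 2.82 at EB day 3, and 2.90 and 3.07 at EB day 4. In monolayer it read 2.92 and 2.61 at day 1, and 3.23 and 2.49 at day 3. All 10 differentiated arrays were above LIF, and the change at EB day 4 was 0.74 (SE 0.26, adjusted p = 0.0466, limma). The second Rnf2 probe read 0.11 and 0.34 with LIF and was lower on all 10 other arrays, with a change of -0.42 (adjusted p = 0.140) at EB day 4. With the mean of both probes the change at EB day 4 was 0.16 (adjusted p = 0.517), and the EB day 4 call was lost without any single LIF, EB or ML day 1 array, with adjusted p from 0.0616 to 0.188.

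**Figure D4:**
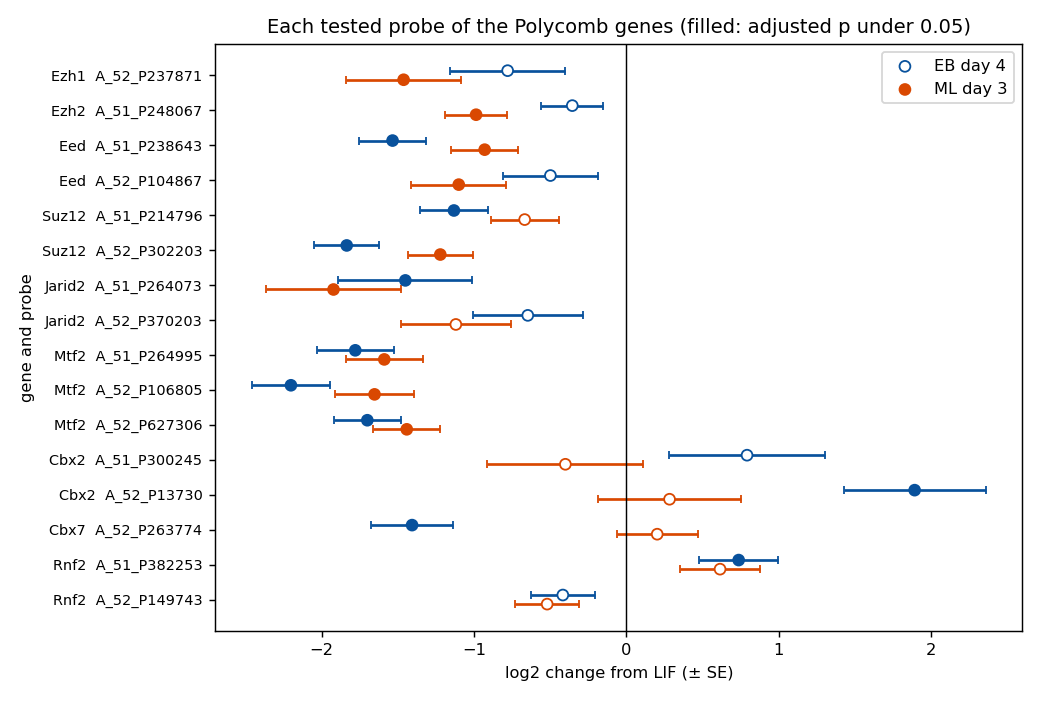
Log2 change from LIF with SE (x axis) of each of the 16 tested probes of the 9 genes (y axis) at EB day 4 and ML day 3, filled where the adjusted p was under 0.05. The probes of Suz12, Mtf2 and Jarid2 lie on the same side of 0, the Rnf2 probes lie on opposite sides, at 0.74 and -0.42 for EB day 4, and the Cbx2 probes differ in size at EB day 4 and lie on opposite sides at ML day 3, at 0.28 and -0.40.

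The cultures were compared directly at day 1 and day 3, which lay on different slides scanned on the same day, so culture and slide cannot be told apart there. Of the 9 genes 0 were called between EB and ML at day 1, where 0.131% of all genes were, and 0 of the 9 had an unadjusted limma p under 0.05. At day 3, 0 were called, where 3.34% of all genes were, and 3 of the 9 had an unadjusted limma p under 0.05. For the difference in change from day 1 to day 3 between the cultures, 0 of 9 were called, where 0.245% were, and 0 had an unadjusted p under 0.05. At day 3 the difference of EB over ML was 1.36 for Cbx2 (95% interval 0.31 to 2.42, adjusted p = 0.164), -0.69 for Cbx7 (-1.29 to -0.09, adjusted p = 0.216) and 0.89 for Jarid2 (0.07 to 1.70, adjusted p = 0.244). At day 1 it was 0.26 for Cbx2 (-0.79 to 1.32) and 0.06 for Cbx7 (-0.54 to 0.66). From EB day 3 to EB day 4, which were on different slides and scanners, 0 of 9 were called, where 12.8% of all genes were, and 2 had an unadjusted p under 0.05.

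Among themselves, the readings of Eed and Mtf2 were most alike over the 12 arrays, with a Pearson r of 0.926, followed by Suz12 and Mtf2 at 0.869, Eed and Suz12 at 0.825, Ezh1 and Ezh2 at 0.816 and Suz12 and Cbx7 at 0.794. These describe arrays that share groups and slides. Among genes with a RefSeq symbol, those most like Cbx2 over the 12 arrays were Jmjd8, Ivns1abp, Carns1, Dipk2a and Ppp2r5d, with r from 0.969 to 0.959. Those most like Cbx7 were Boll, Uchl1, Serpini1, Nit2 and Syt9, with r from 0.985 to 0.974.

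The remaining Polycomb genes were described from lists that hold 51 genes with the 9 above, 49 of them measured. At EB day 4, 16 of the 49 rose and 12 fell against LIF, where 40.9% of all genes were called, 18.7% higher and 22.2% lower, with a median change of 0.089 beside -0.05 for all genes. Of the Ring genes of PRC1, Rnf2 is unsettled as above. Ring1, its paralog, rose by 1.81 (SE 0.21, adjusted p = 0.000272, limma) and was called higher in all 5 groups. Of the 6 Pcgf genes, which pair with the Ring subunit, Bmi1 rose by 2.22 (adjusted p = 0.00754) and Pcgf2 fell by 0.75 (adjusted p = 0.0490), a call kept in 9 of 20 other settings. Of 5 measured Phc and Scm genes, 3 rose and 2 fell: Phc2 rose by 2.06 (adjusted p = 0.000323) while Phc1, the polyhomeotic gene of stem cells, fell by 1.62 (adjusted p = 0.00384). Among the accessory genes of PRC2, Phf1 rose by 1.22 (adjusted p = 0.00223) and Phf19 fell by 2.14 (adjusted p = 0.00316), both of them Polycomb-like relatives of Mtf2.

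**Figure D5:**
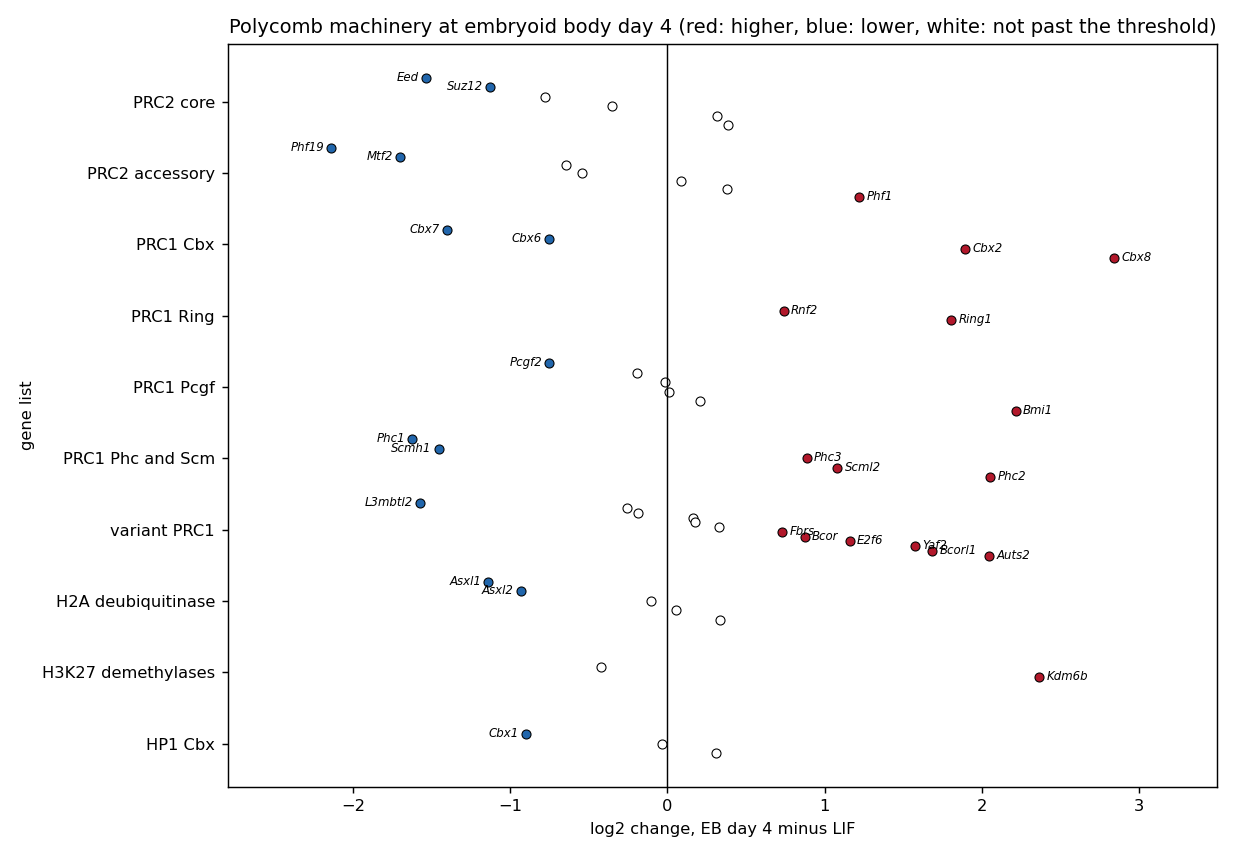
Log2 change from LIF at EB day 4 (x axis) of each measured gene of 9 Polycomb lists and the HP1 list (y axis), red where called higher, blue where called lower and white where not called. Paralogs lie on opposite sides of 0 in several lists: Cbx2 and Cbx8 against Cbx7 and Cbx6, Bmi1 against Pcgf2, Phc2 against Phc1, and Phf1 against Phf19 and Mtf2. Others lie on the same side, such as Asxl1 and Asxl2 below 0, and Ring1 and the unsettled Rnf2 above it.

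Of 12 genes of variant PRC1, 6 rose at EB day 4 and 1 fell, beside 18.7% and 22.2% of all genes. Bcorl1, a BCOR relative, rose by 1.69 (SE 0.22, adjusted p = 0.000486, limma) and was called higher in all 5 groups against LIF, and Auts2 rose by 2.05 (adjusted p = 0.000360), whereas L3mbtl2 fell by 1.58 (adjusted p = 0.000893). Kdm6b, a demethylase that removes the PRC2 mark, rose by 2.37 (adjusted p = 0.000672) at EB day 4, 1.70 at EB day 3 and 1.35 at ML day 3, and Kdm6a was not called in any comparison. Of 5 measured genes of the H2A deubiquitinase complex, Asxl1 and Asxl2 fell at EB day 4, by 1.14 and 0.93. Their calls were kept in 17 and 19 of 20 other settings, and the smallest changes there were -0.076 (adjusted p = 0.857) and -0.11 (adjusted p = 0.742). At EB day 3, 8 of the 49 genes rose and 5 fell, and at ML day 3 the counts were the same, with median changes of -0.048 and -0.18, beside 23.7% and 23.5% of all genes called. At EB day 1, 4 rose and 2 fell, and at ML day 1, 5 rose and 4 fell, beside 13.5% and 18.1% of all genes.

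Of 22 listed developmental genes known as Polycomb targets in stem cells, 19 were measured. Against LIF, 9 rose and 4 fell at EB day 4, 8 and 3 at EB day 3, 4 and 2 at ML day 3, 4 and 2 at ML day 1, and 1 and 1 at EB day 1. In the same order, 40.9%, 23.7%, 23.5%, 18.1% and 13.5% of all genes were called. At EB day 4 the largest rises were those of Hand1, Foxa2, Cdx2 and Sox17, regulators of mesoderm, endoderm and trophectoderm, by 8.46, 6.38, 5.99 and 5.89. The 4 that fell are named here after their values were seen: Pax6, Cdkn2b, Olig2 and Neurog1. Pax6, a neural regulator, was not well above background on either EB day 4 array and was at least 7.49-fold lower than with LIF (adjusted p = 0.000149, limma), the bound being the mean with LIF over the lowest signal well above background on those arrays. Cdkn2b, an inhibitor of the cell cycle, fell by 1.18 (adjusted p = 0.00764), Neurog1 fell by 0.77, and Olig2 was not well above background at EB day 4. At day 3, 6 of the 19 were higher in EB than in ML and 1 lower, beside 3.34% of all genes called.

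The comparisons with LIF and with EB day 4 carry technical differences that cannot be told apart from the groups: the LIF arrays made up a slide of their own, scanned on a day of their own, and the EB day 4 arrays another, on another scanner. Between 52.1% and 63.8% of spots were well above background per array, the lowest on EB day 4, and the ML day 3 arrays differed by at least 2-fold for 18.2% of genes, the largest share of the 6 groups. All 8 pluripotency markers were measured, with 7 lower and 1 higher at EB day 4, beside 22.2% and 18.7% of all genes. All 6 primitive streak markers rose at EB day 3, ML day 3 and EB day 4, beside 13%, 12.6% and 18.7% of all genes called higher. Of 15 proliferation genes, 0 rose and 2 fell at EB day 4, beside 18.7% and 22.2% of all genes. The part of proliferation in the Polycomb results was not tested.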

How the data were processed

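RNA of 12 samples (6 groups, 2 each) was hybridised in 1 colour (Cy3) to Agilent mouse arrays, after extraction with an RNeasy micro kit and amplification with a Low input Quick Amp kit, per the labels' protocols. The deposited scanner files give each spot's signal intensity after Feature Extraction's background subtraction, per the file headers, and its flags as other values. The submitters' processing notes name Agilent Feature Extraction 9.5.1.1, whereas the file headers name later versions. The value table the authors deposited holds intensity values with the same quantiles in every column and was used only as an alternative.

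Control spots and outlier spots were left out, spots of a probe averaged, and log2 intensity set relative to each array's 75th percentile. Probes well above background on both arrays of at least 1 group were kept (26176 of 41174), and the probe with the highest mean stood for a gene. All 6 groups entered one limma 3.58.1 fit (R 4.3.3; lmFit and eBayes, 6 residual degrees of freedom), with Benjamini-Hochberg adjustment and a threshold of 0.05; the fit was tested on simulated data. Genes were named through RefSeq accessions where these matched (27090 probes), otherwise by symbol or synonym (6326) or as the files give them (7758). Coordinates of probes are those of the files (mm9). With 2 arrays per group, their number limits the precision.

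The text names the 9 genes, the Cbx genes of the lists (the result for one item is not reported here), up to 4 called genes per further list and comparison by size of change, and the 5 genes most like Cbx2 and Cbx7; exceptions are stated. The genes, lists and tests were chosen with earlier results of these data known. Alternatives were quantile normalization, normexp background correction (offset 50), the authors' values, no filter, a filter over all 12 arrays, averaging every probe of a gene, only the groups compared, a replicate block and leaving out each array. A fit of the 8 arrays of the middle scan day and a fit per probe were added after seeing the data. Sample numbers (clones 1 and 2) were not taken as pairs: over 15 pairs of groups the clone differences correlated between -0.16 and 0.23.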

Additional observations from a re-analysis of the deposited data

Results flagged for a closer look

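Among the developmental genes known as Polycomb targets, 3 differed between the cultures in their change from day 1 to day 3, by the limma interaction test, 3 of 19 measured, where 0.245% of all genes were called. The change in embryoid bodies exceeded that in monolayer by 4.52 on the log2 scale for Gata6 (SE 0.64, adjusted p = 0.0281), by 4.73 for Sox17 (SE 0.73, adjusted p = 0.0437) and by 2.95 for Msx1 (SE 0.45, adjusted p = 0.0437). All 3 are regulators of endoderm or mesoderm and were well above background on all 12 arrays. Without either EB day 1 array, or without the second ML day 1 array, 0 of 17524 genes were called for this difference, so these 3 calls were lost, and over the fits without an array the count ran from 0 to 297 beside 43 with all arrays. Culture and slide coincide at each day, but the change from day 1 to day 3 lies within a slide.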

How the results depend on the processing

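The falls of Mtf2 at EB days 3 and 4 and of Eed, Suz12 and Cbx7 at EB day 4 were called under all 20 other settings. These counts cover the 9 genes in the comparisons with LIF and of day 3 with day 1, and Cbx2, Cbx7 and Jarid2 in the others: over all settings, 1379 results kept their direction and side of the threshold, 80 lost the call, 49 gained one and 19 changed sign. Among the other member changes, 38 more results changed sign, with values up to 0.29 in size. With only the groups compared in the fit, 0 of the 9 genes were called against LIF at EB day 1, ML day 1 and ML day 3, 2 at EB day 3, 0 from EB day 1 to day 3 and 1 from ML day 1 to day 3, with fewer samples behind each spread. At EB day 1, quantile normalization and the authors' values each called 2. At ML day 1, no filter called 1. From EB day 1 to day 3, normexp and the filter over all arrays each called 2, with normexp Eed (-0.84, adjusted p = 0.0324) and Cbx7 (-1.04, adjusted p = 0.0390) but not Mtf2, and with the filter Mtf2 and Cbx7 (adjusted p = 0.0428), while no filter and the arrays of the middle scan day alone (chosen after seeing the data) each called 0. From EB day 3 to day 4, normexp, no filter and the filter over all arrays each called 1, which was Cbx7 with no filter (adjusted p = 0.0355) and with the filter over all arrays (adjusted p = 0.0439), and Ezh2 with normexp (0.69, adjusted p = 0.0261). The cause of these shifts was not tested. The share of all genes called under each of these settings is not given, so no shift is shown to be particular to the 9 genes.

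Leaving out each array, which leaves its group with 1 array assumed to vary like the other groups, gave 0 to 3 calls at EB day 1, 0 to 3 at ML day 1, 2 to 4 at EB day 3, 3 to 5 at ML day 3 and 4 to 6 at EB day 4 against LIF. It gave 0 to 1 from EB day 1 to 3, 0 to 3 from ML day 1 to 3, 0 to 1 from EB day 3 to 4, 0 to 1 between the cultures at day 3 and 0 to 1 for their difference in change. At EB day 1, ML day 1 and EB day 3, leaving out the second LIF array gave the lowest count and leaving out the first the highest, in part shared with other arrays. The shift of Cbx2 minus Cbx7 ranged from 0.043 to 1.23. In the comparisons without LIF, the calls over all genes also varied widely with the array left out. The ranges given there for the listed Polycomb genes are therefore not shown to be particular to them. Over all genes, the calls against LIF ranged from 201 to 3674 at EB day 1 (2372 with all arrays), 251 to 4469 at ML day 1 (3169), 1813 to 5397 at EB day 3 (4159), 2343 to 5630 at ML day 3 (4110) and 4614 to 8258 at EB day 4 (7170).

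Of the changes counted first, these changed sign, and none of them was called with all arrays. Normexp gave -0.037 for Cbx2 from EB day 3 to 4 and -0.0095 for Cbx7 between cultures at day 1. Quantile normalization and the authors' values gave 0.017 and 0.016 for Ezh2 from EB day 1 to 3. The mean of probes gave -0.057 for Cbx2 at ML day 3, and -0.095 and -0.051 for Rnf2 at EB days 1 and 3. Without single arrays the ranges were -0.62 to 1.19 for Cbx2 at ML day 3, -1.58 to 0.23 for Cbx2 from ML day 1 to 3, -0.043 to 0.16 for Cbx7 between cultures at day 1, -0.82 to 0.35 for Jarid2 at EB day 3 and -0.28 to 0.47 for Rnf2 from ML day 1 to 3. They were -0.12 to 0.057 for Ezh1 and -0.18 to 0.10 for Ezh2 from EB day 1 to 3, and -0.38 to 0.020 for Ezh1 from ML day 1 to 3.

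The labels number the clones 1 and 2 in each group but do not state whether a number marks the same clone across groups. The weak correlations of the clone differences cannot settle that, as each group gives 1 difference per gene. The replicate block left each member change on the same side of the threshold, with 6 of 9 called at EB day 4, and the paired sign-flip test of Cbx2 minus Cbx7 gave an exact p of 0.5 over 4 pairs, whose smallest possible p is 0.125. With 2 arrays per group, a change that misses the threshold is not shown to be absent.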
